A study of Mus musculus with 16 samples.

Results

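Messenger RNA of mouse dorsal skin was measured for 9 genes that take up, store, oxidise, bind and break down retinoids, the forms of vitamin A. They were Lrat, Crabp2, Aldh1a1, Aldh1a2, Aldh1a3, Dhrs9, Rdh10, Stra6 and Cyp26b1, chosen by symbol from the 23282 rows of each count table, and all 9 were found and tested. Skin came from wild-type male C57BL/6N mice bought at 3 weeks of age and kept for 1 week before the experiment, with 4 mice and 4 libraries in each of 4 groups. Cont mice ate normal chow. LowAhR mice ate for 12 weeks a diet low in ligands of the aryl hydrocarbon receptor (AhR), a ligand-activated transcription factor, on paper bedding. LowAhR+AD mice had the same diet and bedding, and from week 2 their dorsal skin was painted with 1% 2,4-dinitrochlorobenzene (DNCB) in acetone and olive oil 2 times a week, a hapten model of atopic dermatitis (AD). LowAhR+AD+BJ mice had all of this and 1 g/kg/day of Bojungikgi-tang (BJIKT), a water extract of 8 herbs, by gavage. The paper bedding is described only for groups on the diet, so that in LowAhR against Cont the diet and the bedding cannot be told apart. No group was painted with DNCB on normal chow, so that in LowAhR+AD against Cont the diet, its bedding and DNCB cannot be told apart. The sources used here do not state whether Cont or LowAhR skin was painted with acetone and olive oil alone. DNCB and its solvent therefore cannot be told apart either. The comparisons share groups and are not independent of each other.

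Retinol reaches tissues in the blood on a carrier protein, and STRA6 is a membrane receptor that passes it into cells. LRAT joins retinol to a fatty acid for storage, while dehydrogenases such as RDH10 and DHRS9 oxidise it to retinal. Aldehyde dehydrogenases of the ALDH1A family then make retinoic acid, which CRABP2 delivers to nuclear receptors and which CYP26B1 hydroxylates for removal. In skin, retinoic acid is known for its part in keratinocyte differentiation, in sebaceous glands and in the hair cycle. Several genes of the pathway, Lrat and Crabp2 among them, are known to respond to retinoic acid itself.

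The 250 bases before each annotated start were searched for letters that the AhR and the retinoic acid receptors are known to bind. RefSeq (GRCm38.p6) gave 10 such stretches for 6 of the members, and none was found for Crabp2, Aldh1a3 or Rdh10. Several of the 10 belong to Stra6, so that they are not 1 per gene. Some lie inside a locus. The Stra6 stretches begin at 58128838 or later in a locus that starts at 58063793. The Cyp26b1 stretch begins at 84593811, inside a locus that ends at 84593908. The AhR core GCGTG stood, on either strand, in 2 of these 10 stretches and in 28.2% of 32851 stretches of all genes, and the longer TNGCGTG in 0 of 10 against 4.10%. The core is contained in the longer form, so these counts overlap. Receptor half-sites of the form AGGTCA stood in 1 of 10 stretches against 14.0%, those of the form GGGTCA in 1 of 10 against 11.6%, and the forms AGTTCA (11.8% of all stretches) and GGTTCA (8.85%) in 0 of 10. The stretches of Lrat, Cyp26b1 and Aldh1a1, the called members with such a stretch and more than a few counts, are printed 5′ to 3′ on the gene's strand, with matches in capitals.
Lrat, chr3:82903975-82904224, minus strand: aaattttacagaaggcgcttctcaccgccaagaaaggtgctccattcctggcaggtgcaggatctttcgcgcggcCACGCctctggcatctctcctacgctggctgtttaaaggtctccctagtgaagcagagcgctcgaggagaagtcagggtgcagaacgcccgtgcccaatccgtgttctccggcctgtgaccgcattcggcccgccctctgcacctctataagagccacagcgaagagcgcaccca
Cyp26b1, chr6:84593811-84594060, minus strand: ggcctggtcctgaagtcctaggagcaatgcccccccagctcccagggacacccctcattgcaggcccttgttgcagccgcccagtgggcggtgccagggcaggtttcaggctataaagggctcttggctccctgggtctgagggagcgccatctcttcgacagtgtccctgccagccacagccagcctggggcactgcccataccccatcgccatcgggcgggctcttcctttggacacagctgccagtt
Aldh1a1, first start, chr19:20492333-20492582, plus strand: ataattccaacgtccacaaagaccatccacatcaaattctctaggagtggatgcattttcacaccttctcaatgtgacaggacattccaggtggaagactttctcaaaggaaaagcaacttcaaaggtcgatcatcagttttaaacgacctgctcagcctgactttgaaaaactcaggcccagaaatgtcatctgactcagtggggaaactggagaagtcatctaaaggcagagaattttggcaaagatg
Aldh1a1, second start, chr19:20601718-20601967, plus strand: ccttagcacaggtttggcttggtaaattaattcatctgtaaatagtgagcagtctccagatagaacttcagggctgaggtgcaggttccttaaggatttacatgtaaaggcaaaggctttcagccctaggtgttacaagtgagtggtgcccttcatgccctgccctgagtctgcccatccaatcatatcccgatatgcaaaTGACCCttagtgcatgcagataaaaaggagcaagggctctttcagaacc
In Lrat the capitals mark a GCGTG on the opposite strand, whose first base in the printed strand lay 175 bases before the start. In the second Aldh1a1 stretch they mark a GGGTCA on the opposite strand, 49 bases before that start. Of the stretches not printed, Aldh1a2 held a GCGTG 128 bases before its start and Dhrs9 an AGGTCA 88 bases before its start. A match of letters is a description of these windows and does not show binding.

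Library totals ran from 7080508 to 13467477 counts, and every library of the 2 groups with DNCB (at least 10614393) was deeper than every library without it (at most 8773876). LowAhR+AD replicate 1 stood apart. Among genes expected there at 20 to 40 counts, 38.2% were at 0, against at most 13.6% in any other library. LowAhR replicate 4 carried the largest share of the ribosomal transcript Rn45s, at 8.48% against 0.783% in the lowest library. Epidermal and dermal markers were found in every group, and no marker of either list was at 0 throughout a group. Because whole skin was sequenced, fewer cells of a type and less RNA per cell cannot be told apart in any result.

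Levels are given as CPM, the counts scaled to a common library size with TMM factors. QuantSeq yields about 1 fragment from the 3′ end of a transcript, so that CPM can be set side by side between genes without a length correction. Averaged over the 16 libraries, the retinoic acid hydroxylase Cyp26b1 was the highest member, at 468 CPM. Crabp2 at 238 CPM and Aldh1a1 at 127 CPM followed. Aldh1a3 (21.5 CPM), Rdh10 (16.4 CPM) and Lrat (11.1 CPM) were in a middle range in which the libraries of neighbouring genes overlapped. Dhrs9 (3.72 CPM), Stra6 (2.37 CPM) and Aldh1a2 (0.896 CPM) were low, and their libraries overlapped as well. A count of 0 allows up to 3 counts, or 0.229 to 0.406 CPM depending on the library, for counting error only.

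**Figure D1:**
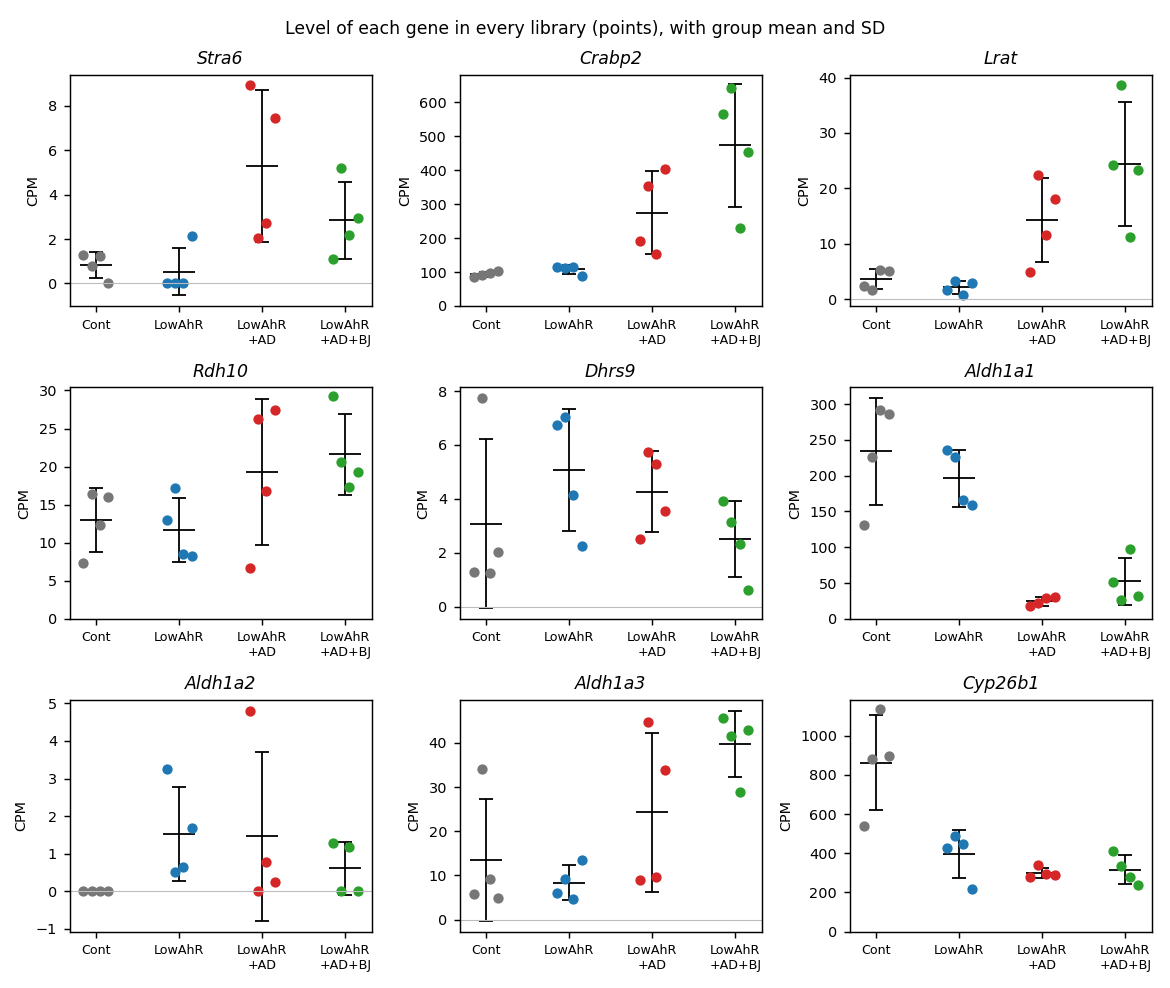
Level of each gene in CPM (vertical axis, linear) in the 4 groups; points are libraries, and bars give the mean and SD of 4. Crabp2 sits at 154 to 643 CPM in all 8 libraries with DNCB, above the other 8, Aldh1a1 at 17.3 to 98.0 CPM below them, and Cyp26b1 is highest in Cont.

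Between LowAhR and LowAhR+AD, which differed by the painting with DNCB, Lrat and Crabp2 rose and Aldh1a1 fell. Members were called with edgeR's quasi-likelihood test where the p-value, adjusted by the Benjamini-Hochberg method over the 14854 rows tested, was under 0.05. On that rule 2 of the 9 members were higher, where 6.42% of all rows were, and 1 was lower, where 6.21% were. The groups did not overlap for the same 3 members, as for 18.8% of rows. The median change of the 9 members was 0.72 on the log2 scale, against 0.038 over all rows tested.

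LowAhR+AD against Cont added Cyp26b1 to the genes that fell. Here 3 members were called higher (Lrat, Crabp2 and Aldh1a2), where 12.3% of rows were, and 2 lower (Aldh1a1 and Cyp26b1), where 9.47% were. Crabp2 and Stra6 above and Aldh1a1 and Cyp26b1 below did not overlap between the groups, as 24.7% of rows did not. The median change was 0.85 against 0.045 over all rows.

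LowAhR+AD+BJ against LowAhR, which sets both DNCB and the extract against the diet alone, called Lrat, Crabp2 and Aldh1a3 higher, where 3.64% of rows were, and Aldh1a1 lower, where 3.12% were. These 4 genes and Rdh10 did not overlap, as 17.1% of rows did not. The median change was 0.88 against 0.0078.

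The other comparisons called no member. LowAhR against Cont called 0 members and 0.0% of all rows with edgeR, although 2 members and 2031 rows had an unadjusted p under 0.05 and DESeq2 called 1 member and 493 rows. Aldh1a2 and Cyp26b1 did not overlap there, as 11.3% of rows did not. LowAhR+AD+BJ against LowAhR+AD, the test of BJIKT, called 0 members and 0.0% of rows with edgeR, with 2 members and 1405 rows at an unadjusted p under 0.05 and 17 rows called by DESeq2. No member was without overlap there, against 5.08% of rows. The medians of these comparisons were -0.25 against 0.026 and 0.16 against -2e-04. In counts simulated for LowAhR+AD against LowAhR, with the spread that edgeR had estimated, 23.3% of the genes that DESeq2 called were false, against 3.17% with edgeR. The comparisons of this paragraph were not simulated.

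**Figure D2:**
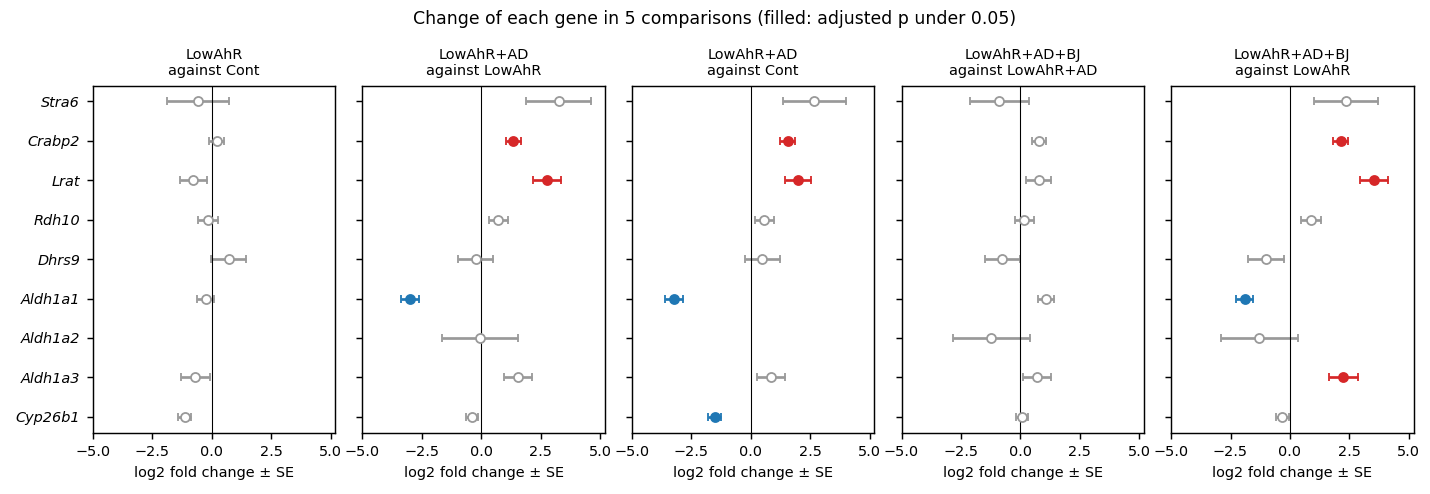
Change of each gene in the 5 comparisons on the log2 scale (horizontal axis), with the standard error as bars; filled points have an adjusted p under 0.05. Aldh1a2 is left out against Cont, where all Cont libraries were at 0; the filled points for Lrat and Crabp2 lie right of 0 and those for Aldh1a1 left of it in the 3 panels that set a group with DNCB against one without.

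Stra6, the retinol receptor (chromosome 9, 58063793 to 58154004, plus strand), was near the limit of detection. Its levels were 1.28, 0.77, 1.23 and 0 CPM in Cont and 0, 0, 0 and 2.15 CPM in LowAhR. In LowAhR+AD they were 8.92, 2.05, 2.72 and 7.46 CPM, and in LowAhR+AD+BJ 1.09, 5.19, 2.18 and 2.92 CPM. All LowAhR+AD libraries were above all Cont libraries, but LowAhR replicate 4 overlapped them. Neither difference passed the edgeR test. The log2 change was 3.25 ± 1.37 (SE) against LowAhR, with an adjusted p of 0.129, and 2.67 ± 1.33 against Cont, with an adjusted p of 0.169. Against LowAhR the adjusted p was 0.0387 with DESeq2, 0.0297 with limma voom and 0.00723 with edgeR without LowAhR replicate 4. Without that replicate the adjusted p for LowAhR+AD+BJ against LowAhR was 0.0183, and with it 0.324.

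Lrat, the esterifying enzyme of retinol storage (chromosome 3, 82892582 to 82903974, minus strand), stood at 2.31, 1.68, 5.30 and 5.02 CPM in Cont. In LowAhR it was at 1.62, 3.20, 0.650 and 2.86 CPM. With DNCB it reached 4.96, 22.4, 11.7 and 18.1 CPM in LowAhR+AD and 24.3, 38.7, 11.2 and 23.4 CPM in LowAhR+AD+BJ. Every library with DNCB was above every LowAhR library, and LowAhR+AD replicate 1 alone reached down into the Cont range. The rise from LowAhR to LowAhR+AD was 6.79-fold (log2 2.76 ± 0.58, adjusted p = 0.00566), and from LowAhR to LowAhR+AD+BJ 11.6-fold (log2 3.54 ± 0.60, adjusted p = 0.00296). Against Cont, LowAhR+AD was 3.97-fold higher (adjusted p = 0.0168). With limma voom the adjusted p was 0.0810 against LowAhR and 0.122 against Cont, and in edgeR the call against Cont was lost without Cont replicate 2 (adjusted p = 0.0552) or LowAhR+AD replicate 2 (adjusted p = 0.0552). LowAhR against Cont gave -0.78 ± 0.57 (adjusted p = 0.608).

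Rdh10 and Dhrs9 oxidise retinol to retinal, and neither passed the test in any comparison. Rdh10 (chromosome 1, 16105882 to 16132550, plus strand) was at 7.31, 16.4, 12.3 and 16.03 CPM in Cont and 12.98, 17.1, 8.45 and 8.23 CPM in LowAhR. It was at 6.71, 26.2, 16.8 and 27.4 CPM in LowAhR+AD, so that this group held both the lowest library of all and some of the highest. LowAhR+AD+BJ, at 29.3, 20.7, 17.3 and 19.3 CPM, lay just above LowAhR without overlap. That difference was 0.88 ± 0.41 on the log2 scale, with an adjusted p of 0.210. Dhrs9 (chromosome 2, 69380462 to 69403086, plus strand) ran from 1.23 to 7.75 CPM in Cont and from 2.27 to 7.03 CPM in LowAhR. With DNCB it ran from 2.52 to 5.74 CPM in LowAhR+AD and from 0.605 to 3.92 CPM in LowAhR+AD+BJ, and every pair of groups overlapped. Its changes lay between -1.01 ± 0.74 and 0.72 ± 0.74.

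Aldh1a1, which oxidises retinal to retinoic acid (chromosome 19, 20492583 to 20643463, plus strand), had the smallest adjusted p of the members in LowAhR+AD against LowAhR and against Cont. Cont libraries held 131, 227, 292 and 286 CPM and LowAhR libraries 236, 225, 165 and 159 CPM. LowAhR+AD libraries held 17.3, 21.97, 29.05 and 30.4 CPM, and LowAhR+AD+BJ libraries 52.1, 26.5, 98.0 and 32.3 CPM. No library with DNCB reached any library without it. Against LowAhR, the log2 level in LowAhR+AD fell by 2.99 ± 0.38 (adjusted p = 1.68e-04), which left 0.126 of the LowAhR level. Against Cont it fell by 3.24 ± 0.38 (adjusted p = 5.85e-05). LowAhR+AD+BJ was below LowAhR by a log2 difference of -1.91 ± 0.36 (adjusted p = 0.00547), and LowAhR differed from Cont by -0.25 ± 0.35 (adjusted p = 0.818). These 3 calls were kept under every alternative and without any single library.

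Aldh1a7, a mouse gene closely related to Aldh1a1 that is no member and was chosen after its values were seen, can share reads with it. How reads that match both were assigned is not given in the sources used here, so the split between them is uncertain. Aldh1a7 averaged 19.2 ± 4.37 CPM (SD, n = 4) in Cont, 29.1 ± 14.1 in LowAhR, 4.00 ± 2.46 in LowAhR+AD and 5.61 ± 2.00 in LowAhR+AD+BJ. It also fell from LowAhR to LowAhR+AD, by 2.86 ± 0.48 on the log2 scale (adjusted p = 0.00149).

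Aldh1a3, another retinal dehydrogenase (chromosome 7, 66390892 to 66427477, minus strand), moved the other way in LowAhR+AD+BJ. It was at 5.90, 34.1, 9.25 and 4.79 CPM in Cont and 5.95, 9.08, 4.68 and 13.6 CPM in LowAhR. LowAhR+AD was split, with 8.92 and 9.55 CPM in replicates 1 and 3 and 44.8 and 33.9 CPM in replicates 2 and 4. LowAhR+AD+BJ held 45.7, 41.6, 28.8 and 42.9 CPM, above every LowAhR library. The 4.76-fold rise over LowAhR (log2 2.25 ± 0.62) had an adjusted p of 0.0354. That p was 0.0542 with limma voom, and it was 0.0775 to 0.109 without LowAhR replicate 1, 2 or 3 or LowAhR+AD+BJ replicate 1, 2 or 4. LowAhR+AD against LowAhR gave 1.54 ± 0.61 (adjusted p = 0.102). LowAhR+AD against Cont gave 0.85 ± 0.59 (adjusted p = 0.339), but 1.87 with an adjusted p of 0.0289 without Cont replicate 2, the Cont library at 34.1 CPM.

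Aldh1a2, the third retinal dehydrogenase (chromosome 9, 71215789 to 71296243, plus strand), rested on few counts. All 4 Cont libraries held 0 counts, against 24, 4, 5 and 14 in LowAhR, 63, 0, 10 and 3 in LowAhR+AD and 14, 0, 15 and 0 in LowAhR+AD+BJ. In LowAhR the pooled level was 16.02-fold the limit of 3 counts over the whole Cont group, and in LowAhR+AD 16.01-fold. That limit allows for counting error only. Replicate libraries differed by more than counting error, with a chi-square per degree of freedom of 16.4 to 285 over pairs. The error of the pooled level was not included either, so these ratios are not lower bounds of the change. Without LowAhR replicate 1 the first ratio was 10.3-fold. Without LowAhR+AD replicate 1, which held 63 of the 76 counts of its group, the second was 3.70-fold. The edgeR test gave an adjusted p of 0.189 for LowAhR against Cont, where the 2 groups did not overlap. For LowAhR+AD against Cont it gave 0.0475. That call was lost with limma voom (0.216) and with no filter on low counts (0.0520). It was also lost without any library of the comparison other than LowAhR+AD replicate 2 (0.0535 to 0.136).

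Summed over the 3 genes, ALDH1A transcripts were at 247 ± 75.7 CPM (SD, n = 4) in Cont and 206 ± 39.1 in LowAhR. They were at 50.4 ± 17.9 CPM in LowAhR+AD and 92.6 ± 27.1 in LowAhR+AD+BJ. Their make-up differed between the groups. Aldh1a1 gave 86.9% to 98.4% of the summed counts in Cont and 91.2% to 96.9% in LowAhR. With DNCB its share was 32.9% to 73.8% in LowAhR+AD and 38.9% to 76.6% in LowAhR+AD+BJ. Aldh1a3 supplied most of the remainder, 1.64% to 13.1% in Cont, 2.43% to 7.80% in LowAhR, 24.3% to 67.1% in LowAhR+AD and 22.5% to 61.1% in LowAhR+AD+BJ. In LowAhR+AD replicates 2 and 4 and LowAhR+AD+BJ replicates 2 and 4, Aldh1a3 had more counts than Aldh1a1.

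**Figure D3:**
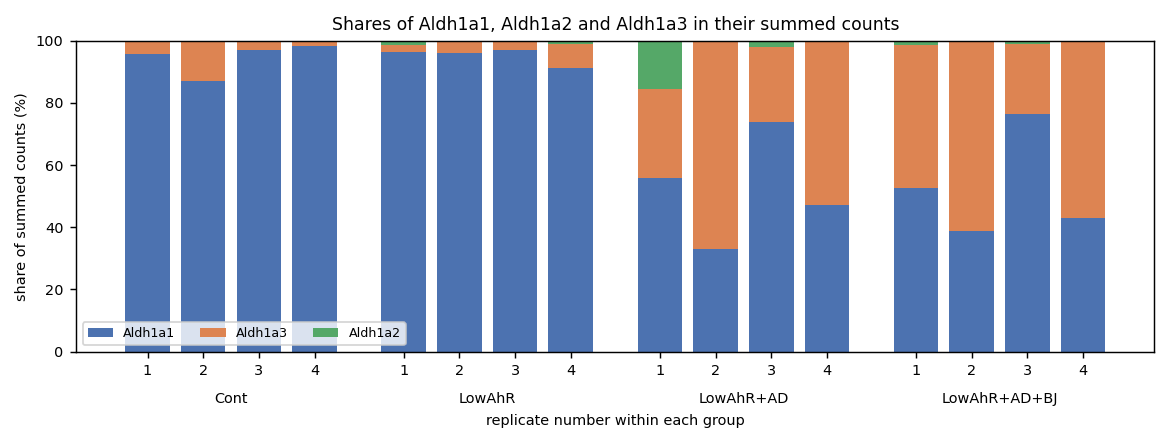
Share of Aldh1a1, Aldh1a3 and Aldh1a2 in their summed counts (vertical axis, percent) in each of the 16 libraries, by group and replicate. The Aldh1a1 part is at least 86.9% in every library without DNCB and at most 76.6% in every library with it.

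Crabp2, which carries retinoic acid to its nuclear receptors (chromosome 3, 87948693 to 87953372, plus strand), stood at 85.7, 89.99, 96.3 and 103 CPM in Cont and 115, 113, 116 and 88.1 CPM in LowAhR. It reached 190, 354, 154 and 403 CPM in LowAhR+AD and 567, 643, 229 and 454 CPM in LowAhR+AD+BJ. The 8 libraries with DNCB were above the other 8 without overlap, and their spread was wider. The rise from LowAhR to LowAhR+AD was 2.55-fold (log2 1.35 ± 0.31, adjusted p = 0.00996), and from Cont to LowAhR+AD 2.94-fold (adjusted p = 0.00224). LowAhR+AD+BJ was 4.38-fold above LowAhR (log2 2.13 ± 0.32, adjusted p = 0.00116). LowAhR against Cont gave 0.21 ± 0.31 (adjusted p = 0.837). All 3 calls were kept under every alternative and without any single library.

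Cyp26b1, which breaks retinoic acid down (chromosome 6, 84571414 to 84593908, minus strand), was already apart between LowAhR and Cont, as Aldh1a2 was, and was lower in LowAhR. Cont libraries held 540, 882, 1134 and 896 CPM. LowAhR libraries held 426, 490, 445 and 216 CPM, all below Cont. LowAhR+AD libraries, at 278, 338, 295 and 290 CPM, and LowAhR+AD+BJ libraries, at 409, 333, 278 and 240 CPM, lay within the LowAhR range. LowAhR against Cont gave a log2 difference of -1.13 ± 0.27, or 0.457 of the Cont level, with an unadjusted p of 6.30e-04 and an adjusted p of 0.0806 in edgeR and an adjusted p of 0.00354 in DESeq2. LowAhR+AD against Cont passed the edgeR test, at -1.52 ± 0.28 (adjusted p = 0.00108), and kept the call under every alternative. From LowAhR to LowAhR+AD the difference was -0.39 ± 0.27 (adjusted p = 0.367).

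The exact two-sided permutation test of the mean log2 CPM gave 0.0286, the smallest p that 4 against 4 allows, wherever the groups of a member did not overlap. It was run for the 9 members in 5 comparisons, 45 tests in all, so that a single such p does not pass a correction over them.

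BJIKT was examined in LowAhR+AD+BJ against LowAhR+AD. The sources used here do not state whether LowAhR+AD mice were gavaged with water alone. The extract and the gavage therefore cannot be told apart. Aldh1a1 was 2.12-fold higher with the extract (log2 1.08 ± 0.35) and Crabp2 1.72-fold higher (log2 0.78 ± 0.31), with unadjusted p of 0.00683 and 0.0212 and adjusted p of 0.498 and 0.5004. Lrat gave 0.77 ± 0.53, Aldh1a3 0.71 ± 0.59, Rdh10 0.16 ± 0.40 and Cyp26b1 0.07 ± 0.27. Below 0 were Dhrs9 at -0.77 ± 0.74, Stra6 at -0.89 ± 1.25 and Aldh1a2 at -1.23 ± 1.62. Adjusted p ran from 0.498 to 0.953, and these values do not show that the groups were alike. For Aldh1a1, LowAhR+AD+BJ replicate 2, at 26.5 CPM, lay within the range of LowAhR+AD (17.3 to 30.4 CPM), replicate 4, at 32.3 CPM, just above it, and replicates 1 and 3, at 52.1 and 98.0 CPM, further above. All 4 remained below the lowest LowAhR library, at 159 CPM.

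Of the 43 other genes listed for the retinoid pathway, 42 were in the count tables and 35 passed the filter on low counts. LowAhR+AD against LowAhR called 3 of them higher and 6 lower, where 6.42% and 6.21% of all rows were. LowAhR+AD against Cont called 6 higher and 6 lower (12.3% and 9.47% of rows), and LowAhR+AD+BJ against LowAhR 4 higher and 3 lower (3.64% and 3.12% of rows). LowAhR against Cont and the BJIKT comparison each called 0 with edgeR, with 8 and 4 genes at an unadjusted p under 0.05. DESeq2 called 5 in LowAhR against Cont. On the log2 scale the median of the 35 was 0.21 for LowAhR against Cont (all rows 0.026) and 0.22 for the BJIKT comparison (all rows -2e-04). The median was -0.27 for LowAhR+AD against LowAhR (all rows 0.038), -0.13 for LowAhR+AD against Cont (all rows 0.045) and -0.22 for LowAhR+AD+BJ against LowAhR (all rows 0.0078).

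Among binding and carrier proteins, Crabp1, the relative of Crabp2, was at 3.24 to 21.7 CPM in LowAhR and 12.6 to 271 CPM in LowAhR+AD. Its log2 change was 3.29 ± 0.69 (adjusted p = 0.00533, but 0.0814 with limma voom). Fabp5, a fatty acid binding protein that also carries retinoic acid, rose from 574 to 729 CPM in LowAhR to 839 to 2815 CPM in LowAhR+AD, with a log2 change of 1.86 ± 0.33 (adjusted p = 0.00222). Both were also called higher in LowAhR+AD against Cont (3.67 and 2.24) and in LowAhR+AD+BJ against LowAhR (3.05 and 2.29), where limma voom gave Crabp1 an adjusted p of 0.0583 and 0.0933.

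Rbp4, the carrier of retinol in blood, which is made in fat as well as liver, was at 45.3 to 124 CPM in LowAhR and at 0 to 12.9 CPM in LowAhR+AD, a log2 difference of -3.40 ± 0.72 (adjusted p = 0.00588). It was at 3.43 to 8.12 CPM in LowAhR+AD+BJ (-3.70 ± 0.74 against LowAhR, adjusted p = 0.00715). Of 5 tested genes listed for storage and release of retinyl esters, 3 were called lower in LowAhR+AD against LowAhR, while Dgat1 (-0.28, adjusted p = 0.695) and Lipe (-0.64, adjusted p = 0.260) did not pass the test. Ces1d was at 62.9 to 86.6 CPM in LowAhR and 0.381 to 14.5 in LowAhR+AD (-3.17 ± 0.60, adjusted p = 0.00300), Lpl at 1239 to 1628 and 215 to 549 CPM (-1.90 ± 0.29, adjusted p = 7.73e-04), and Awat2 at 34.8 to 94.5 and 0.305 to 16.9 CPM (-2.66 ± 0.70, adjusted p = 0.0193). The Awat2 call was lost without LowAhR replicate 1 (adjusted p = 0.0580). For Rbp4, Ces1d, Lpl and Awat2, but not for Dgat1 or Lipe, LowAhR+AD replicate 1 was the lowest library.

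The alcohol dehydrogenases Adh1 and Adh7, which oxidise retinol among other alcohols, fell from LowAhR to LowAhR+AD. Adh1 was at 159 to 294 CPM in LowAhR and 22.3 to 111 in LowAhR+AD (-2.02 ± 0.40, adjusted p = 0.00396), and Adh7 at 60.6 to 131 and 22.9 to 46.8 CPM (-1.42 ± 0.32, adjusted p = 0.00851). Adh1 was also called lower in LowAhR+AD+BJ against LowAhR (-1.54 ± 0.39, adjusted p = 0.0261). That call was lost without LowAhR replicate 1, 2 or 3 or LowAhR+AD+BJ replicate 1, 2 or 4 (adjusted p = 0.0516 to 0.0979). Adh7 was not called in LowAhR+AD+BJ against LowAhR (-0.78 ± 0.32, adjusted p = 0.153). Its LowAhR+AD+BJ replicate 3, at 85.4 CPM, lay within the LowAhR range. Against Cont, the oxidoreductases Sdr16c6 (-2.31 ± 0.58, adjusted p = 0.00923) and Dhrs7 (-0.86 ± 0.25, adjusted p = 0.0204) were lower in LowAhR+AD, where the Dhrs7 call was lost without Cont replicate 1 (0.0777) or LowAhR+AD replicate 4 (0.0642). Rdh12, a reductase of retinal, was higher in LowAhR+AD+BJ against LowAhR (1.02 ± 0.23, adjusted p = 0.0137), a call lost without LowAhR+AD+BJ replicate 2 (0.0517) or 4 (0.0548). Its call in LowAhR+AD against Cont (0.66 ± 0.23, adjusted p = 0.0484) was lost under 9 of 11 alternatives and without 6 of the 8 single libraries.

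Of the nuclear receptors, the partner receptor Rxrb was called higher in LowAhR+AD against Cont (1.01 ± 0.32, adjusted p = 0.0289), which was lost without Cont replicate 2, 3 or 4 or LowAhR+AD replicate 4 (0.0675 to 0.106). Rxrb averaged 12.2 CPM in Cont, 25.1 in LowAhR and 24.6 in LowAhR+AD. LowAhR against Cont gave 1.05 ± 0.32 (adjusted p = 0.131), and LowAhR+AD against LowAhR -0.03 ± 0.31 (adjusted p = 0.960). Ppard, a receptor to which Fabp5 delivers ligands, was called higher in LowAhR+AD against LowAhR (1.18 ± 0.29, adjusted p = 0.0136). It averaged 22.9 CPM in Cont, 14.1 in LowAhR and 31.9 in LowAhR+AD, where replicate 1 was highest at 50.0 CPM. Ppard was not called in LowAhR+AD against Cont (0.48 ± 0.29, adjusted p = 0.254) or LowAhR+AD+BJ against LowAhR (0.76 ± 0.29, adjusted p = 0.127). The retinol carrier Rbp7 was called higher in LowAhR+AD against Cont (1.42 ± 0.45, adjusted p = 0.0294), lost without Cont replicate 1, 2 or 3 or LowAhR+AD replicate 3 or 4 (0.0546 to 0.150) and with limma voom (0.179). Rbp7 averaged 6.76 CPM in Cont, 21.7 in LowAhR and 18.1 in LowAhR+AD. LowAhR against Cont gave 1.68 ± 0.45 (adjusted p = 0.0973), and LowAhR+AD against LowAhR -0.26 ± 0.43 (adjusted p = 0.747). The retinoic acid receptor Rarg averaged 108 ± 19.5 CPM (SD, n = 4) in Cont, 88.6 ± 20.2 in LowAhR, 94.9 ± 10.8 in LowAhR+AD and 65.1 ± 24.4 in LowAhR+AD+BJ, and no comparison called it. Rdh7, Adh4 and Cyp26c1 were at 0 in all 16 libraries. Cyp26a1, a relative of Cyp26b1, had 1 count in LowAhR replicate 1, 14 counts in LowAhR+AD+BJ replicate 1 and 0 elsewhere.

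**Figure D4:**
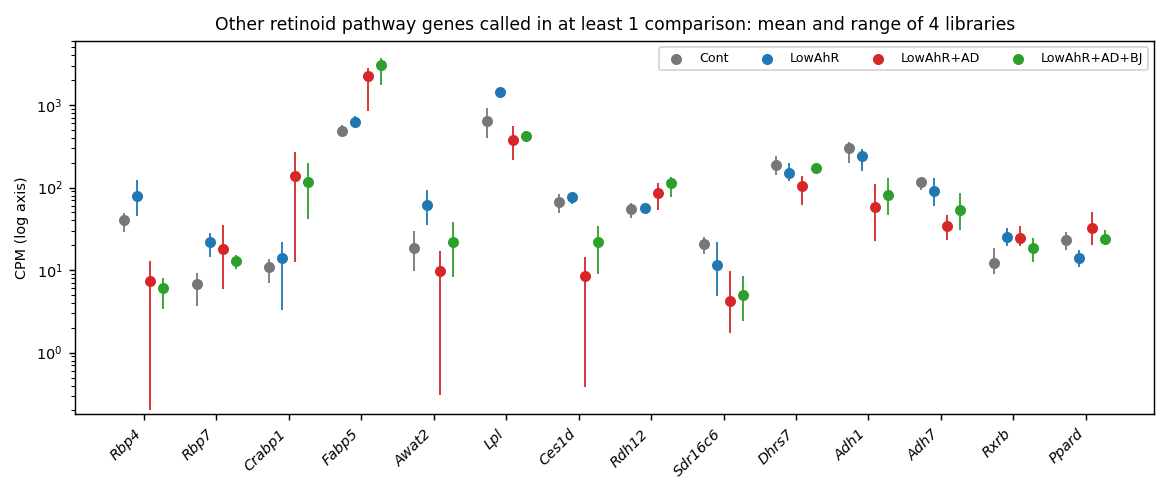
Mean level (points) and range over 4 libraries (lines) of 14 other retinoid pathway genes that passed the test in at least 1 comparison, in CPM on a log axis; a library at 0 is drawn at the lower edge. Fabp5 is at 839 CPM or more in every library with DNCB and at most 729 in the others, whereas Rbp4 is at most 12.9 CPM with DNCB and at least 28.8 without it.

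Markers of several cell types moved with these genes. Activated keratinocyte markers (7 genes, Krt6a and Krt16 among them) summed to 12118 CPM or more in every library with DNCB, and to at most 1758 CPM in every other library, in which Il24 was at 0. The groups with high Lrat, Crabp2 and Fabp5 were thus also those with high activated keratinocyte markers. Hair follicle markers (16 genes) ran from 30.0 to 1051 CPM in Cont, 109 to 12896 in LowAhR, 7417 to 35318 in LowAhR+AD and 7714 to 23551 in LowAhR+AD+BJ. Dermal fibroblast markers (8 genes) ran from 28477 to 70977 CPM in Cont, 29127 to 55431 in LowAhR, 3973 to 23054 in LowAhR+AD and 11244 to 20585 in LowAhR+AD+BJ. They were lower in the groups with low Aldh1a1 and overlapped between Cont and LowAhR, where Cyp26b1 did not. Summed epidermis markers (9 genes) did not overlap there, at 11087 to 14725 CPM in Cont and 7280 to 10839 in LowAhR. The sum was thus lower in the group with lower Cyp26b1. Taken singly, 0 of these 9 genes were called between Cont and LowAhR and 3 were higher in LowAhR. Only 3 were lower without overlap, where 11.3% of all rows did not overlap in either direction. Sebaceous gland markers (11 genes) ran from 3147 to 6352 CPM in LowAhR and 1615 to 2315 in LowAhR+AD, where Mc5r was at 0. Taken singly, 2 of 10 tested sebaceous markers were called lower between these groups, where 6.21% of all rows were, and 0 higher. Of the 10, 3 had a log2 change above 0. In LowAhR+AD+BJ against LowAhR, 7 of 10 had a change above 0, with 1 called higher and 3 lower (3.64% and 3.12% of all rows). Adipocyte markers (9 genes) ran from 3306 to 6341 CPM in Cont, 8397 to 13000 in LowAhR, where they were higher as Cyp26b1 was lower, and 389 to 3931 in LowAhR+AD, the groups between which Rbp4, Lpl and Ces1d fell. In LowAhR+AD against LowAhR, 8 of 8 skeletal muscle markers and 2 of 5 T cell markers were called lower, where 6.21% of all rows were. Called higher were 5 of 6 cell cycle markers and 3 of 5 neutrophil markers, where 6.42% of rows were. Of 9 Langerhans and dendritic cell markers 1 was called lower, and 0 of 8 macrophage and 0 of 6 endothelial markers were called. The part of cell make-up in the members' differences was not tested.

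For each member called at least once, the tested genes with the most similar pattern were found as the smallest root mean square difference of centred log2 CPM over the 16 libraries, among 9381 genes averaging at least 10 CPM. Crabp2 was followed most closely, by Klk7 at 0.22 and Pla2g4e at 0.24, where the spread of Crabp2 itself was 1.01. Aldh1a1 was nearest to Cadm3 at 0.44 and Nexn at 0.48 (spread 1.44), and Cyp26b1 to Fnip1 and Fbn1, both at 0.34 (spread 0.69). Lrat was nearest to Pi15 at 0.67 and Endou at 0.68 (spread 1.58). The nearest genes of Aldh1a3 (Nup37 at 0.71 and Wdr36 at 0.72, spread 1.22) and of Aldh1a2 (Hba-a1 at 1.10 and Abi3 at 1.14, spread 1.57) were more distant. With each gene also scaled to its own spread, both nearest genes of Crabp2, 1 each of Lrat, Aldh1a1, Aldh1a3 and Cyp26b1 and 0 of Aldh1a2 were kept.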

How the data were processed

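Total RNA of 16 dorsal skin samples was made into QuantSeq 3′ libraries and read as single ends of 75 bases. For each library the authors deposited a raw count for every gene symbol. Their processing notes name Bowtie2, bedtools and mm10, without versions; the handling of reads that match several genes is not given in the sources used here. Groups and replicates were taken from the labels.

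Counts were fitted in R 4.3.3 with edgeR 4.0.16 (glmQLFit, glmQLFTest, TMM factors of 0.892 to 1.16) in one model of all 16 libraries. The filterByExpr function (min.count 10, min.total.count 15) left 14854 of 23282. The standard error is the log2 change divided by the root of F. Log2 CPM used a prior count of 2. Other settings were RLE and upper-quartile factors, library totals, sizes without Rn45s or marker genes, DESeq2 1.42.0, limma voom 3.58.1, other filters, 8-library models, a replicate block and each library left out. The tests were tried first on simulated counts, with 200 of 14403 genes changed between LowAhR and LowAhR+AD. Of the genes called, 3.17% were false with edgeR, 0% with limma voom and 23.3% with DESeq2. Of 4-fold changes, edgeR recovered 54%, limma voom 46% and DESeq2 75%. Of 2-fold changes, edgeR recovered 7%, limma voom 6% and DESeq2 24%. Promoter stretches and loci came from RefSeq GRCm38.p6. No member was among the 35 symbols with several rows, and annotated genes that overlap members held 0 to 2 counts in all.

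All 9 members and the genes called in the wider retinoid list were named, except 1 counted gene whose values are not reported here, with the 2 genes nearest in pattern to each called member. The members and the retinoid and marker lists were chosen with earlier results of these data known. The main model did not use replicate numbers as pairs, because no source says that they mark a litter, cage or day.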

Additional observations from a re-analysis of the deposited data

Results flagged for a closer look

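In 3 of the 35 sets of 4 libraries examined, a library stood apart from the others of its group by Dixon's criterion on log2 CPM at the 95% level. Chance flags about 1 in 20. All 3 were LowAhR replicate 4, the library with the largest share of Rn45s. Crabp2 was lowest there, at 88.1 CPM (gap over range 0.908). Stra6 was highest there, at 2.15 CPM with the other LowAhR libraries at 0 (gap over range 1.0). With the others at 0, any count in this library gives a value near 1.0. The Stra6 flag therefore says nothing about the size of the gap, and the chance rate of 1 in 20 does not apply to it. Cyp26b1 was lowest there, at 216 CPM (gap over range 0.830).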

How the results depend on the processing

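Aldh1a1, Crabp2 and Cyp26b1 kept each of their calls under all alternatives. Lrat was removed by the filter of 10 counts in every library, and under the other alternatives it kept its calls in LowAhR+AD and LowAhR+AD+BJ against LowAhR, except with limma voom in the former. Where a value changed, the cause was not tested. Library totals without factors shifted the median of all genes in LowAhR against Cont by -0.11, and turned Aldh1a2 in LowAhR+AD against LowAhR to 0.13 and Cyp26b1 in LowAhR+AD+BJ against LowAhR+AD to -0.025 (exact permutation p = 0.743). DESeq2 called 493 rows, 1 member and 5 other retinoid genes in LowAhR against Cont, 17 rows in LowAhR+AD+BJ against LowAhR+AD and 1666 rows, against 1005, in LowAhR+AD+BJ against LowAhR. A filter of 10 counts in every library called 35 rows in LowAhR against Cont and 3 members, against 5, in LowAhR+AD against Cont, and limma voom also called 3 there. Models of only the 8 libraries compared called 250 rows and 3 other retinoid genes in LowAhR against Cont, 765 rows, against 1876, in LowAhR+AD against LowAhR and 7 other retinoid genes, against 12, in LowAhR+AD against Cont. These models lost Rbp4, Awat2 and Ppard in LowAhR+AD against LowAhR (adjusted p = 0.0552 to 0.0707) and Rbp4, Rbp7, Rdh12, Dhrs7 and Rxrb in LowAhR+AD against Cont (adjusted p = 0.0610 to 0.104).

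With single libraries left out, LowAhR against Cont called 0 to 159 rows (159 without LowAhR replicate 2) and 0 to 1 other retinoid genes. LowAhR+AD against LowAhR called 1128 to 2015 rows, the lowest counts being without LowAhR replicates 1, 2 and 3, and LowAhR+AD+BJ against LowAhR+AD 0 to 1. LowAhR+AD+BJ against LowAhR called 414 to 1469 rows (414 without LowAhR+AD+BJ replicate 2, and 453 to 606 without its replicate 1 or 4 or LowAhR replicate 1, 2 or 3) and 4 to 11 other retinoid genes. Among changes that were not called, Aldh1a3 ran from -1.03 to 0.33 in LowAhR against Cont (0.33 without Cont replicate 2) and Aldh1a2 from -2.12 to 0.62 in LowAhR+AD against LowAhR. In LowAhR+AD+BJ against LowAhR+AD, Aldh1a2 ran from -1.84 to 0.84, Rdh10 from -0.12 to 0.38 and Cyp26b1 from -0.083 to 0.18.

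The replicate block, with the number as a term, called 1689 rows and 3 members in LowAhR+AD against LowAhR, 2990 rows and 4 members in LowAhR+AD against Cont, 947 rows and 4 members in LowAhR+AD+BJ against LowAhR, and 0 in the other comparisons. Under the block, Aldh1a2 lost its call in LowAhR+AD against Cont (adjusted p = 0.0763). Same-numbered libraries deviated from their group means with correlations of -0.055 to 0.17. The same-numbered library was the best match for 3 of 4 in LowAhR+AD against Cont and 2 of 4 in LowAhR+AD+BJ against LowAhR+AD. It was the best match for 0 in the other comparisons. Whether the numbers mark a pairing is not settled by these values. Aldh1a2, Dhrs9 and Stra6 are at the limit of this depth, where 3 counts are 0.229 to 0.406 CPM.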
